A study of Mus musculus with 11 samples.

Results

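The genes described here are Depp1 and 7 other genes of the FOXO pathway, Foxo1, Foxo3, Pdk4, Klf15, Cdkn1a, Txnip and Irs2, which are 8 of the 54532 genes in the count table. The list was chosen by the contrast of arthritic against control tissue, because Depp1 had the largest increase among the genes that passed that test, and the other 7 were added as known FOXO factors and targets. Values of that contrast, with their intervals and whether a gene passed, therefore only describe these 8 genes. No p-value of it is printed for them, and that Depp1 passed was fixed by its choice. The tissue was dissected from the lateral habenula, a small epithalamic nucleus, of 3-month-old BALB/c mice. Collagen antibody-induced arthritis (CAIA) was produced by intraperitoneal injection of a cocktail of 5 monoclonal antibodies to type II collagen at 50 mg/kg, then lipopolysaccharide (LPS) at 1 mg/kg after 3 days, and control mice received vehicle. LPS and arthritis cannot be told apart in this design. The 4 groups held 3 female controls, 3 female CAIA, 2 male controls (labelled 1 and 3) and 3 male CAIA libraries. The labels do not say that each library came from a separate animal, so errors measure the spread between these samples.

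FOXO proteins are forkhead transcription factors that act downstream of insulin and growth factor receptors. When AKT is active it phosphorylates them and they are held in the cytoplasm, and when insulin signalling is low or a cell is stressed they enter the nucleus and raise genes of fuel use, cell cycle arrest, antioxidant defence and autophagy. Their activity is set largely by phosphorylation and location, which the level of their mRNA does not measure. Several FOXO targets, among them Klf15, Pdk4 and Cdkn1a, also respond to glucocorticoids.

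Because these genes share a regulator in the literature, their promoters were searched for FOXO-type motifs in the 250 bases before each RefSeq start site (GRCm38.p6, the C57BL/6J reference and not BALB/c). The motifs searched, on both strands, were the core form GTAAACA, a second form written as GTAAATA and the form known from insulin response elements, CAAAACA. No matches overlapped each other. Of 9 promoter windows for the 8 genes, which include 2 for Cdkn1a, 3 held a match, against 10.9% of all 32851 promoter windows. The stretches that hold the matches are shown with the motif in capitals.
Depp1, chr6:116650434-116650608, plus strand: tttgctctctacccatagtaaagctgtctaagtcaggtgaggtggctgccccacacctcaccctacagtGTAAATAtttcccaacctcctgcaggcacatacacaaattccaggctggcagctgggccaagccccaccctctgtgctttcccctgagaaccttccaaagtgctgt
Txnip, chr3:96557811-96557867, plus strand: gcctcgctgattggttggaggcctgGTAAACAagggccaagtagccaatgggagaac
Irs2, chr8:11008935-11008991, minus strand: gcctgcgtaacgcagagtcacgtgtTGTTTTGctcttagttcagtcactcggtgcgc
Depp1 held GTAAATA, which begins 181 bases before its RefSeq start and is present in 2.73% of all windows. Txnip held GTAAACA, beginning 121 bases before the start and present in 3.17% of windows. Irs2 held CAAAACA on the opposite strand, read as TGTTTTG in the line above. It begins 37 bases before the RefSeq start and is present in 5.56% of windows. The gene coordinates given below are from GENCODE, whose starts differ. For Irs2 the start is 11008458 in GENCODE and 11008929 in RefSeq, so the match lies farther from the GENCODE start. For Depp1 it is 116650609 and 116650684, so the match lies nearer to the GENCODE start. The windows of Foxo1, Foxo3, Pdk4, Klf15 and Cdkn1a held none of these letters.

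Libraries held 25317306 to 29565006 counts, and 19619 genes had enough counts to be tested, all 8 among them. Lateral habenula markers were present in every library, with Gpr151 at 137 to 204 CPM (counts scaled to a common library total) and Pcdh10 at 235 to 333. The 8 markers together stood at 1783 to 2084 CPM in controls and 1847 to 2156 in CAIA. Markers of the neighbouring regions were also present in every library. Those of the medial habenula were summed at 1133 to 1528 CPM in controls and 1200 to 1529 in CAIA. Thalamus markers were summed at 1445 to 2554 CPM in controls and 1848 to 2382 in CAIA. Choroid plexus markers, which mark the epithelium bordering the habenula, differed most. For each of the 16, no CAIA library reached any control, and their summed level was 2751 to 5709 CPM in controls and 251 to 2151 in CAIA. Pineal markers were summed at 2.60 to 46.4 CPM, and exceeded 40 in female CAIA replicate 2 and male CAIA replicate 3. Hippocampus and cortex markers, from tissue next to the habenula, had a mean log2 level of 3.01 to 3.12 in the male controls and 4.06 to 4.43 in male CAIA, with all 9 positive in males (median log2 fold change 1.34). In females they stood at 3.43 to 5.09 in controls and 3.49 to 4.28 in CAIA, with 7 of 9 negative (median -0.32). Their summed levels overlapped in both sexes, at 619 to 676 CPM in male controls and 660 to 946 in male CAIA, and at 651 to 925 in female controls and 676 to 759 in female CAIA. Of the 9, 1 (Fezf2) was at 0 in male control replicate 1. In bulk tissue, fewer cells of a type and less RNA per cell cannot be told apart.

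Depp1 encodes a small protein named for its induction by progesterone in the decidua, a FOXO target linked to autophagy and oxidative stress. It lies on chromosome 6 (116650609 to 116652794, plus strand, GRCm38, protein-coding). Its counts were 16, 10 and 8 in female controls 1 to 3, 51, 57 and 107 in female CAIA 1 to 3, 18 and 12 in male controls 1 and 3, and 14, 40 and 40 in male CAIA 1 to 3. On the CPM scale these were 0.622, 0.393 and 0.272, then 1.81, 1.99 and 3.68, then 0.677 and 0.434, then 0.552, 1.57 and 1.44. Every female CAIA library was above every female control, while male CAIA replicate 1 lay between the male controls. The highest library, female CAIA replicate 3, had a 95% Poisson interval of 87.7 to 129 counts, and the lowest, female control replicate 3, one of 3.45 to 15.8, intervals that cover counting error only. Male CAIA replicate 1, with 14 counts, had an interval of 7.65 to 23.5, which holds both male control values.

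Group means of Depp1 were 0.429 ± 0.178 CPM (SD, n = 3) in female controls and 2.49 ± 1.03 (n = 3) in female CAIA, and 0.556 ± 0.172 (n = 2) in male controls and 1.19 ± 0.55 (n = 3) in male CAIA. The fitted log2 fold change was 1.82 ± 0.34 (SE) over both sexes with equal weight, a 3.52-fold difference with a 95% interval of 1.10 to 2.54 on the log2 scale. It was 2.54 ± 0.44 in females, or 5.81-fold, and 1.09 ± 0.51 in males, or 2.14-fold. Among all 19619 genes this was the 39th largest positive fold change. Of the 4 genes that passed with CAIA higher, Depp1 had the largest. The call ended without any one of female control replicates 2 and 3 (log2 fold change 1.79 and 1.69), female CAIA replicate 3 (1.62), male control replicates 1 and 3 (1.98 and 1.68) or male CAIA replicate 3 (1.74), and also in limma-voom (1.75) and with a replicate block (1.76). The fold change was positive in each of these fits. DESeq2 called it. Choroid plexus markers were lower in all the CAIA libraries, least so in male CAIA replicates 2 and 3. Without those libraries Depp1 was at 1.27, its lowest value in any fit, and no call is given for that fit. That fit keeps only replicate 1 of male CAIA, which lay between the male controls, so it cannot set choroid plexus content apart from the loss of these libraries. Without female CAIA replicate 2 and male CAIA replicate 3, the libraries highest in pineal markers, Depp1 was at 1.80 and no longer passed. The part of these cells in the Depp1 values was not tested.

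**Figure D1:**
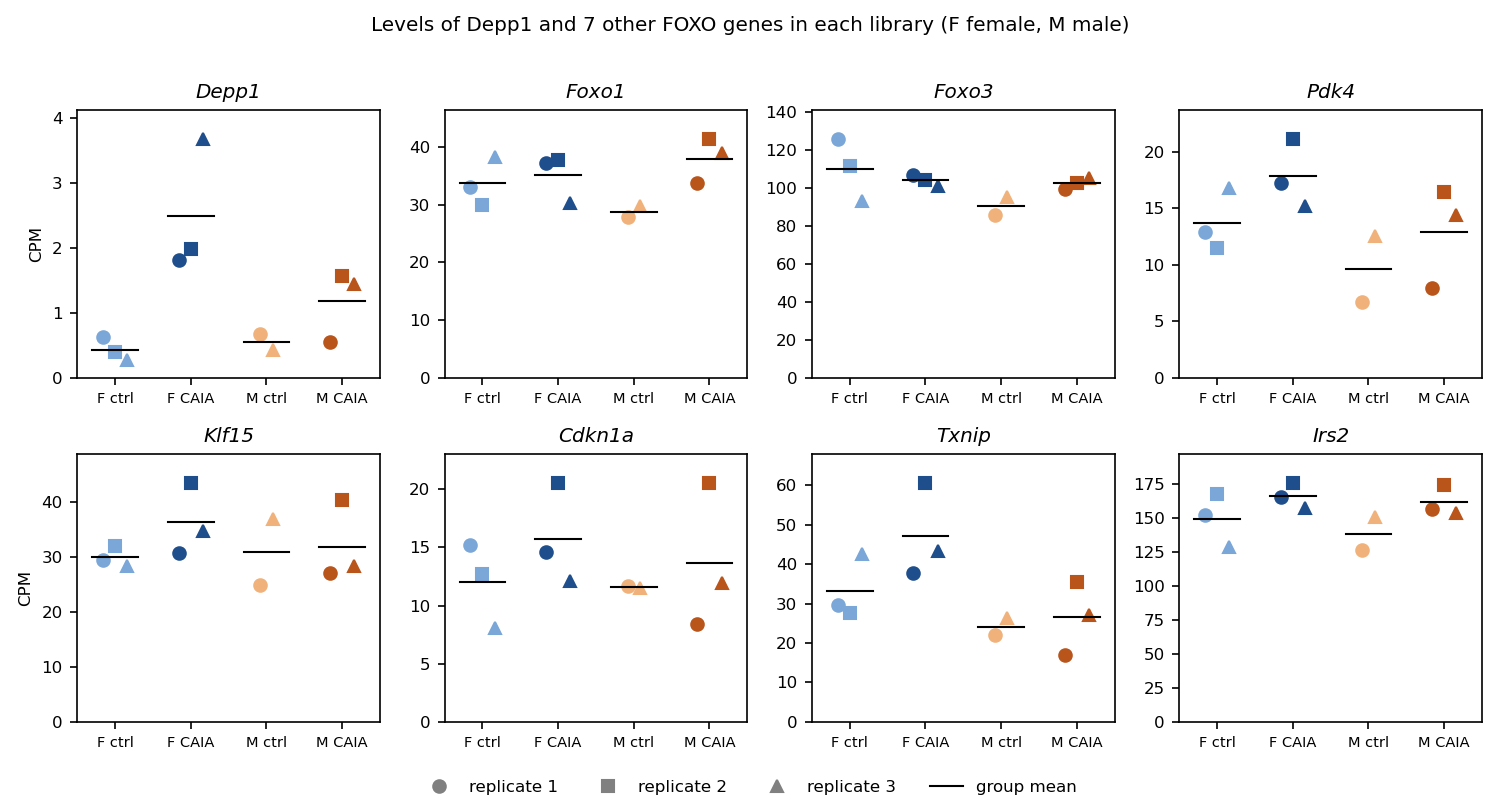
Level of each of the 8 genes in CPM (vertical axes, linear and starting at 0, 1 scale per gene) in the 11 libraries, by group on the horizontal axes. Symbols are libraries by replicate number and bars are group means. Depp1 in the 3 female CAIA libraries sits at 1.81 to 3.68 CPM, above all controls at 0.272 to 0.677, and no other gene of the 8 has its female CAIA libraries wholly above the female controls.

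The genes of the FOXO factors had small fold changes. Foxo1, the factor best known from insulin-regulated glucose metabolism, was at 33.1, 30.00 and 38.3 CPM in the female controls, 37.2, 37.7 and 30.3 in female CAIA, 27.9 and 29.7 in the male controls and 33.7, 41.4 and 38.9 in male CAIA. Every male CAIA library was above both male controls, and the female groups overlapped. The log2 fold change was 0.23 ± 0.09 over both sexes (95% interval 0.04 to 0.41), with 0.05 ± 0.12 in females and 0.40 ± 0.13 in males. Foxo3, the factor best known from stress resistance and cell survival, was at 126, 112 and 93.3 CPM in the female controls, 107, 105 and 101 in female CAIA, 85.7 and 95.6 in the male controls and 99.6, 103 and 105 in male CAIA. The female CAIA values lay inside the range of the female controls, and the 3 male CAIA values were above both male controls. The log2 fold change was 0.05 ± 0.07 (interval -0.11 to 0.21). The hippocampus and cortex markers differed between the same male groups. Astrocyte markers also did, summed at 2861 to 3314 CPM in male controls and 3531 to 3723 in male CAIA. Microglia markers were summed at 203 to 234 and 236 to 243 CPM, though their mean log2 levels overlapped. In females the summed levels of both lists overlapped. The part of these markers in the male values of Foxo1, Foxo3 and Irs2 was not tested. Foxo1 lies on chromosome 3 (52268336 to 52353221) and Foxo3 on chromosome 10 (42181841 to 42276755).

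Among the targets of fuel and insulin control, Pdk4, the kinase that inhibits pyruvate dehydrogenase and so spares glucose, was at 12.9, 11.5 and 16.8 CPM in the female controls, 17.3, 21.1 and 15.3 in female CAIA, 6.70 and 12.5 in the male controls and 7.93, 16.4 and 14.4 in male CAIA. Both groups spanned a wide range and overlapped in each sex, and the lowest values were male control replicate 1 and male CAIA replicate 1. The log2 fold change was 0.40 ± 0.22 (interval -0.09 to 0.89), at similar values in females (0.38 ± 0.29) and males (0.43 ± 0.33). It was 0.21 without male control replicate 1 and 0.67 without male control replicate 3. Klf15, a Krüppel-like factor of amino acid and glucose metabolism, was at 29.5, 32.01 and 28.4 CPM in the female controls, 30.8, 43.5 and 34.8 in female CAIA, 24.99 and 36.98 in the male controls and 27.1, 40.4 and 28.4 in male CAIA. Female CAIA replicate 2 and male CAIA replicate 2 were its highest libraries. Its log2 fold change was 0.16 ± 0.13 (interval -0.13 to 0.45), and it was 0.03 without male control replicate 1 and 0.33 without male control replicate 3. Irs2, an adaptor that couples the insulin receptor to PI3 kinase and is itself raised by FOXO, was at 152, 168 and 129 CPM in the female controls, 165, 176 and 158 in female CAIA, 126 and 151 in the male controls and 157, 174 and 154 in male CAIA. Every male CAIA library was above both male controls, while the female groups overlapped. The log2 fold change was 0.19 ± 0.08 (interval 0.02 to 0.36), with 0.15 ± 0.10 in females and 0.22 ± 0.12 in males, and it was 0.12 without male control replicate 1. Pdk4 and Klf15 lie on chromosome 6 (5483351 to 5496309 and 90462576 to 90475238) and Irs2 on chromosome 8 (10984681 to 11008458).

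The remaining targets act in growth arrest and redox control. Cdkn1a, which encodes an inhibitor of cyclin-dependent kinases, was at 15.3, 12.7 and 8.04 CPM in the female controls, 14.6, 20.5 and 12.1 in female CAIA, 11.7 and 11.5 in the male controls and 8.41, 20.5 and 11.97 in male CAIA. The replicate 2 libraries of both CAIA groups stood above the others, and male CAIA replicate 1 was below both male controls. The log2 fold change was 0.31 ± 0.26 (interval -0.27 to 0.89). Without male CAIA replicate 2 it was 0.09. Without both that library and male CAIA replicate 3, the CAIA libraries highest in choroid plexus markers, it turned to -0.03. Male CAIA replicate 1 was then the only male CAIA library. Txnip, which encodes an inhibitor of thioredoxin that also restrains glucose uptake, was at 29.7, 27.7 and 42.6 CPM in the female controls, 37.8, 60.6 and 43.3 in female CAIA, 21.98 and 26.3 in the male controls and 17.01, 35.4 and 27.2 in male CAIA. Female CAIA replicate 2 was highest and male CAIA replicate 1 lowest of all 11 libraries. The log2 fold change was 0.32 ± 0.21 (interval -0.16 to 0.80), with 0.18 when male CAIA replicate 2 was left out and 0.43 when male CAIA replicate 1 was. Cdkn1a lies on chromosome 17 (29090976 to 29100727) and Txnip on chromosome 3 (96557957 to 96561883). An antisense gene, Gm15441, overlaps 19.4% of the exonic bases of Txnip, and smaller overlaps of 7.78%, 7.68% and 2.56% exist for Foxo1, Cdkn1a and Irs2. The sources used here do not give the strand setting of the counting, and reads from those stretches cannot be told apart by strand.

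**Figure D2:**
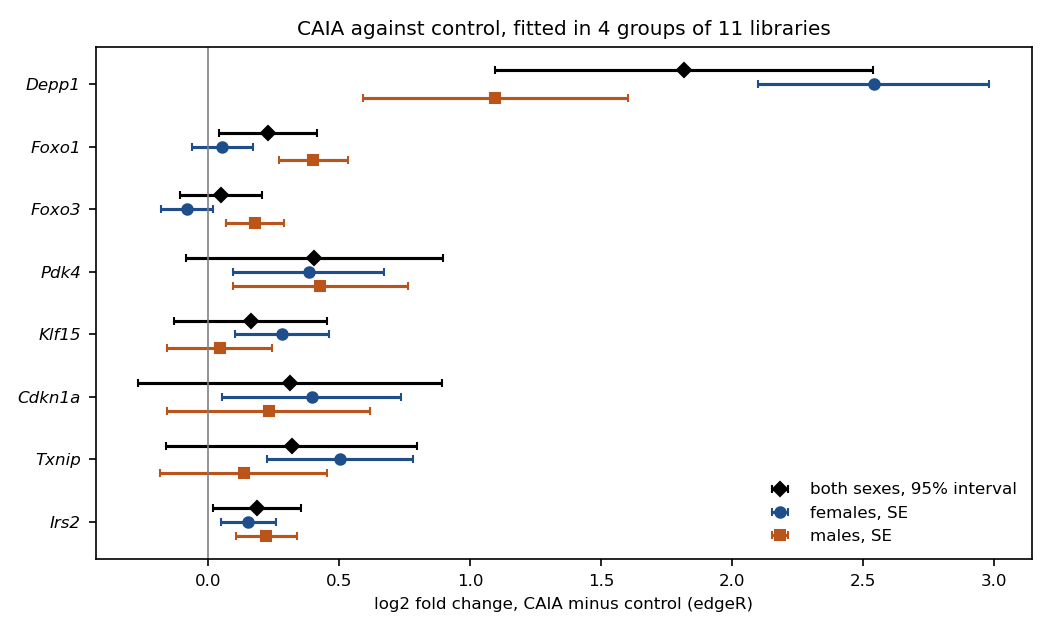
Log2 fold change of CAIA minus control (horizontal axis) for the 8 genes (vertical axis). Black diamonds are both sexes with the 95% interval, and circles and squares are females and males with SE. Depp1, chosen for its rise in this contrast, stands at 1.82, and the other 7 genes stand between 0.05 and 0.40.

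Set side by side, all 8 genes had a positive fold change over both sexes, where 50% of all genes tested did. In the quasi-likelihood test of edgeR, p was adjusted over all genes, with a threshold of 0.05. Depp1 alone of the 8 passed, and it had been chosen from the genes that did. Of all genes 0.596% passed in either direction, 0.0204% higher and 0.576% lower. At an unadjusted p of 0.05, 3 of the 8 passed (Depp1, Foxo1 and Irs2), against 6.36% of all genes. The median log2 fold change of the 7 genes other than Depp1 was 0.23, and 0.00 over all genes tested. No gene of the 8 had all CAIA libraries above all controls, a pattern of 0.168% of genes, or all of them below, a pattern of 1.01%. Within females Depp1 alone had non-overlapping groups with CAIA higher (5.08% of genes). Within males Foxo1, Foxo3 and Irs2 did (9.18% of genes). These genes were put forward with this contrast known, so nothing is read from these shares.

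Levels can be compared between genes only per exonic length. In controls the mean level per kilobase (RPKM, over the GENCODE exons of each gene) was 23.0 ± 2.77 for Irs2 (SD, n = 5), 13.5 ± 2.14 for Foxo3, 10.9 ± 1.60 for Klf15 and 9.50 ± 2.48 for Txnip. It was 3.67 ± 0.47 for Foxo1, 3.44 ± 1.03 for Pdk4, 3.33 ± 0.73 for Cdkn1a and 0.353 ± 0.123 for Depp1. The control ranges of Irs2 and Depp1 did not overlap with those of their neighbours in this order. Foxo3, Klf15 and Txnip overlapped with each other, as did Foxo1, Pdk4 and Cdkn1a. Depp1 was therefore the least abundant of the 8 in controls. In CAIA it stood at 1.35 ± 0.76 RPKM (n = 6), and its highest library, at 2.71, was above the lowest CAIA values of Cdkn1a at 2.37 and Pdk4 at 2.26.

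The choice of genes did not use the sex difference or the difference in CAIA effect between sexes, so these were tested. In edgeR no gene of the 8 passed for the CAIA effect in females minus males, as for all genes tested (0% called). None of the 8 had an unadjusted p under 0.05, which 4.11% of all genes had, and none passed in DESeq2 or limma-voom. Depp1 had the largest difference, 1.44 ± 0.68 on the log2 scale (adjusted p = 0.978), with a 95% interval of -0.0013 to 2.89. Foxo1 was at -0.35 ± 0.17 (interval -0.72 to 0.03) and Foxo3 at -0.26 ± 0.15 (interval -0.57 to 0.05), both with an edgeR adjusted p of 0.978. The larger fitted increase of Depp1 in females and of Foxo1 and Foxo3 in males was therefore not shown to differ between the sexes. Between females and males over both treatments none of the 8 passed either (0.0459% of all genes did), nor in DESeq2 or limma-voom. At an unadjusted p of 0.05 Txnip passed, against 6.76% of genes. Txnip was 0.65 ± 0.21 higher in females on the log2 scale (interval 0.17 to 1.13, edgeR adjusted p = 0.731), and Pdk4 0.49 ± 0.22 (adjusted p = 0.731). All 8 had a positive female minus male value, against 51% of genes. Counted without the filter on low counts, Txnip and Pdk4 passed for this difference, at 0.65 ± 0.09 and 0.50 ± 0.11. Their fold changes hardly moved and their SE fell, so these calls came with a smaller fitted error. Txnip also passed in a model that included the choroid plexus marker level. The shares of all genes called in these fits are not given here, so nothing is read from these calls.

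Whether the other genes moved with Depp1 from library to library was examined on deviations from the group means, which leave out the treatment difference. Over the 11 libraries Depp1 was related most to Cdkn1a (Pearson r = 0.42, exact permutation within groups, two-sided p = 0.375, Spearman rho = 0.40, p = 0.368). Over the 7 relations r ran from -0.14 for Foxo1 to 0.42, the Benjamini-Hochberg adjusted values were 0.886 to 0.975 for r and 0.917 for rho, and none passed. Without the 2 libraries farthest from the median of Depp1, r with Cdkn1a was 0.52, with Txnip 0.05 and with Pdk4 -0.13. With 1 library left out, r with Cdkn1a ran from 0.04 without male CAIA replicate 1 to 0.82 without female CAIA replicate 3. Female CAIA replicate 3, the library highest in Depp1, was the lowest of its group in Foxo1, Foxo3, Pdk4, Cdkn1a and Irs2. The other 7 genes were related more closely to each other, a set of 21 pairs looked at after the values were seen, with a median r of 0.46 against 0.16 for the 7 pairs with Depp1. Pdk4 and Txnip had r = 0.86 (exact permutation p = 0.00694, adjusted over all 28 pairs 0.0972, rho = 0.80) and 0.84 without the 2 libraries farthest from the median of Pdk4. Foxo1 and Pdk4 had r = 0.80 (p = 0.00231, adjusted 0.0648, rho = 0.82), where 0.00231 is the smallest p that the 432 permutations can give, and 0.73 without the 2 libraries farthest from the median of Foxo1. No pair passed after adjustment. The difference between the 2 sets of pairs was not tested.

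**Figure D3:**
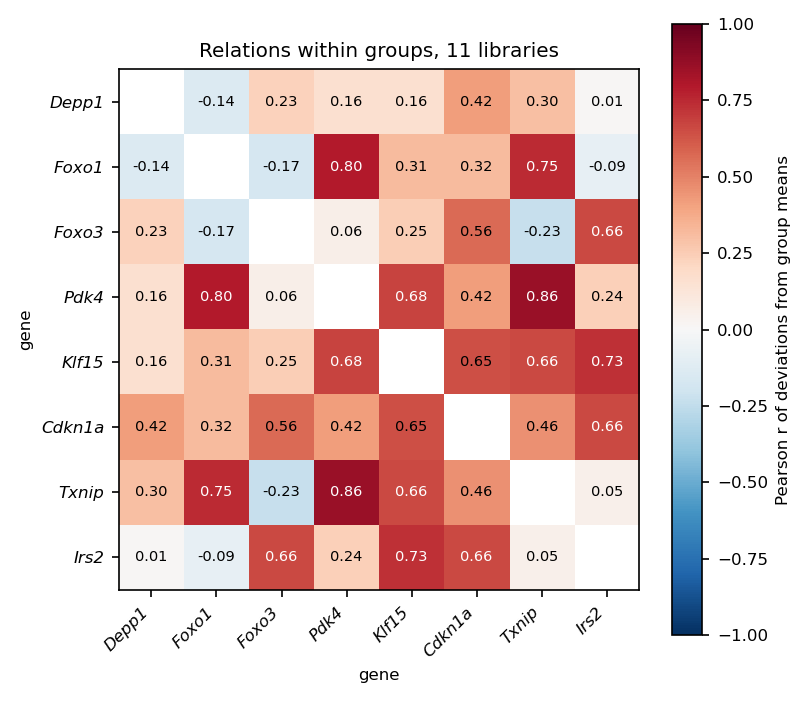
Pearson r of each pair of the 8 genes over 11 libraries, on log2 values after subtracting the group mean, with red for positive and blue for negative r. The Depp1 row runs from -0.14 to 0.42, while Pdk4 and Txnip reach 0.86 and Foxo1 and Pdk4 0.80.

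Among the 15555 genes whose mean reached 1 CPM, the 5 whose deviations were most like those of Depp1 were Scamp3 (r = 0.97, rho = 0.94), Adam12 (0.93 and 0.94), Pex11a (0.93 and 0.79), Cd53 (0.92 and 0.92) and Tedc2 (0.90 and 0.96), over the 11 libraries. Without the 2 libraries farthest from the median of Depp1, male CAIA replicate 1 and female CAIA replicate 3, r was 0.79 to 0.95. They are the top of a ranking of 15555 genes, so no p is given. Their log2 fold changes in CAIA were between -0.22 for Tedc2 and 0.38 for Cd53. Cdkn1a ranked 2329th and Foxo1 9921st on the same measure.

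The wider FOXO pathway was described with lists of 120 further genes, of which 114 had enough counts to be tested. In CAIA against control 1 of the 114 passed, and it was lower, where 0.576% of all genes passed as lower, so the count says nothing particular of the pathway. Igf2, an insulin-like growth factor, fell by 1.35 ± 0.26 on the log2 scale (edgeR adjusted p = 0.0286). It was at 2.06, 3.18 and 3.61 CPM in the female controls, 0.960, 0.802 and 0.481 in female CAIA, 2.41 and 3.33 in the male controls and 1.42, 2.71 and 1.11 in male CAIA. All female CAIA libraries were below the female controls, while male CAIA replicate 2 was above male control replicate 1. Choroid plexus markers fell in the same libraries, as given above, and the 10 meningeal fibroblast markers were summed at 165 to 196 CPM in female controls and 136 to 151 in female CAIA, with all 10 negative in females (median -0.37). In males they were summed at 136 to 169 CPM in controls and 138 to 174 in CAIA, with 5 of 10 negative, and over both sexes 1 of the 10 passed as lower (Col1a1). Their part in the change of Igf2 was not tested. In a model that included the choroid plexus level, which separates the treatments completely, Igf2 was at -0.07 ± 0.54, an error too wide to place it. The call ended in that model. Without the 2 CAIA libraries highest in choroid plexus markers Igf2 was at -1.49, with male CAIA replicate 1 as the only male CAIA library left. The call also ended without female control replicate 2 or 3 (-1.32 and -1.27), female CAIA replicate 1, 2 or 3 (-1.46, -1.38 and -1.23), male control replicate 1 or 3 (-1.46 and -1.21) or male CAIA replicate 1 or 3 (-1.29 and -1.23), without the 2 libraries highest in pineal markers (-1.26), and in the additive model (-1.38).

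Among the 71 further FOXO targets 65 were tested, 36 had a positive and 29 a negative fold change, with a median of 0.02, and none passed in edgeR. At an unadjusted p of 0.05 in edgeR, 3 were higher and 4 lower, against 6.36% of all genes in either direction. DESeq2 called 3 of them, Ddit4, Cpt1a and Hrk, and limma-voom none. The share of all genes that DESeq2 called is not given here, so nothing is read from that count. Hrk, a pro-apoptotic BH3-only gene, was at 0.46 ± 0.10 (adjusted p = 0.0588). It was at 18.3, 16.5 and 21.2 CPM in the female controls, 20.03, 18.2 and 16.8 in female CAIA, 13.3 and 11.7 in the male controls and 23.4, 28.4 and 20.4 in male CAIA, so the male groups did not overlap and the female groups did. The hippocampus and cortex markers, given above, were also higher in male CAIA than in the male controls, and their part in the Hrk values was not tested. Cpt1a, the carnitine palmitoyltransferase that admits fatty acids to mitochondria, was at -0.29 ± 0.07 (adjusted p = 0.0714). Its values were 39.9, 38.8 and 42.98 CPM in the female controls, 30.7, 29.97 and 27.2 in female CAIA, 31.4 and 34.01 in the male controls and 28.5, 31.5 and 31.1 in male CAIA. The female CAIA values were all below the female controls, and male CAIA replicate 2 was just above the lower male control. In females alone Cpt1a passed, at -0.47 ± 0.09 (adjusted p = 0.0379, with 0.26% of all genes called), while its CAIA effect did not pass as different between the sexes (-0.36 ± 0.13, adjusted p = 0.978). Ddit4, an inhibitor of mTORC1 that glucocorticoids also raise, was at 0.44 ± 0.10 (adjusted p = 0.101). It was at 47.97, 50.2 and 39.8 CPM in the female controls, 55.8, 68.1 and 68.97 in female CAIA, 35.5 and 38.9 in the male controls and 42.9, 60.7 and 42.98 in male CAIA, and in both sexes every CAIA library was above every control of that sex.

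Cell cycle and DNA repair targets other than Cdkn1a had 8 positive and 4 negative values (median 0.02). Bcl6, a transcriptional repressor, was at 0.43 ± 0.14 (edgeR adjusted p = 0.415) and Ccnd2, a D-type cyclin that FOXO lowers, at -0.34 ± 0.15 (0.779). Oxidative stress targets other than Depp1 and Txnip lay between -0.08 and 0.13, with 6 of 10 positive. Selenop, the selenium carrier of plasma and brain, was at 0.13 ± 0.07 (0.816), and the sestrin genes Sesn1 and Sesn2 at 0.10 ± 0.06 and 0.10 ± 0.07. Autophagy and protein breakdown targets had 7 of 13 positive with a median of 0.01, and the largest value was that of Fbxo30, a ubiquitin ligase gene, at 0.16 ± 0.10 (0.881). Metabolic targets other than Pdk4, Klf15 and Irs2 had 5 positive and 6 negative values. Among the targets with too few counts to be tested were Trim63, Pck1, G6pc, Igfbp1 and Ccr7.

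The other FOXO factors were at 0.04 ± 0.07 for Foxo4 and -0.06 ± 0.13 for Foxo6. Among the 24 further genes of insulin and PI3 kinase input, 16 were positive and 8 negative (median 0.04). In females alone 1 gene of the input list passed, as lower, with 0.26% of all genes called. Irs1, the sister adaptor of Irs2, was at 0.34 ± 0.10 (edgeR adjusted p = 0.328) and Akt2, an AKT kinase gene, at -0.23 ± 0.08 (0.530). Of the 24 regulators and cofactors, 20 were positive with a median of 0.06 and none had an unadjusted p under 0.05. The deacetylase gene Sirt1 was at 0.10 ± 0.07, the kinase gene Stk4 at 0.13 ± 0.07 and the AMPK subunit gene Prkaa2 at -0.10 ± 0.07. Of the tested genes among the 120, none passed for the CAIA effect in females minus males or for female against male in edgeR, DESeq2 or limma-voom. At an unadjusted p of 0.05 in edgeR there were 8 for the first of these (1 positive, 7 negative), against 4.11% of all genes. There were 9 for the second (7 positive, 2 negative), against 6.76% of all genes.

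**Figure D4:**
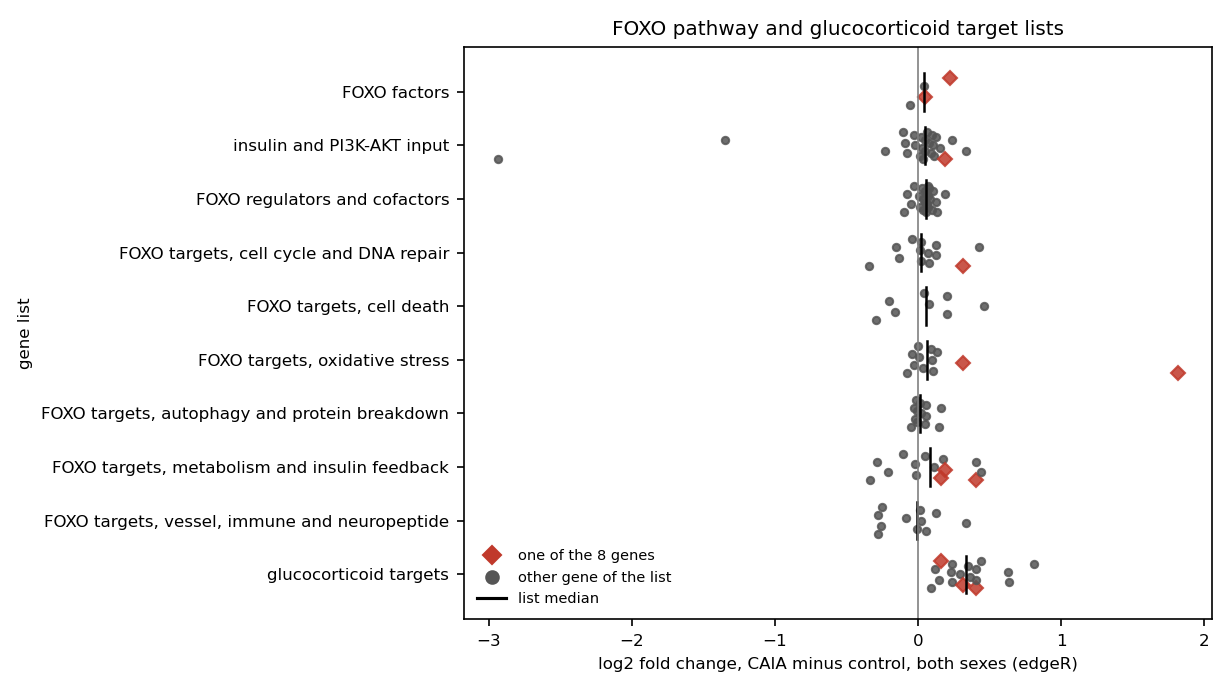
Log2 fold change of CAIA minus control over both sexes (horizontal axis) for each tested gene of the FOXO pathway lists and the glucocorticoid targets (rows). Red diamonds are the 8 genes, grey circles other genes of a list and black bars list medians, which lie between -0.01 and 0.08 for the FOXO lists and at 0.33 for the glucocorticoid targets. The 2 points farthest to the left are Ins2 at -2.93, with a mean of 0.217 CPM, and Igf2 at -1.35.

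Pdk4, Klf15 and Cdkn1a are also on a list of 18 glucocorticoid targets. Each of the 18 had a value above 0 (median 0.33), against 50% of all genes, and none passed in edgeR. An unadjusted p under 0.05 was found for 5 of the 18, against 6.36% of all genes, and Ddit4, also on this list, passed in DESeq2. The 15 that are not among the 8 genes were summed at 720 to 891 CPM in controls and 762 to 1164 in CAIA. Their lowest CAIA library was male CAIA replicate 1, which was also the lowest CAIA library for Depp1, Pdk4, Klf15, Cdkn1a and Txnip, and their highest was male CAIA replicate 2. The part of this level in the values of the 8 genes was not tested. Endothelial markers, summed at 502 to 573 CPM in controls and 514 to 554 in CAIA, overlapped between the groups, and in a model that included their level Depp1 was at 1.81 ± 0.38.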

How the data were processed

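RNA was counted per gene in 11 mouse libraries, and groups came from the sample titles. The authors deposited whole-number read counts per gene, and the submitters' processing notes name, for the GRCm38 build, the tools featureCounts 1.5.0-p3, cutadapt 1.9.1 and HISAT2 2.0.5. The sources used here give neither the strand setting nor the annotation release. Totals were 25317306 to 29565006 counts per library. No pair of libraries in a group agreed within sampling noise (chi-square per degree of freedom 6.59 to 27.7). Each was counted as 1 replicate, though this check cannot show that libraries came from separate animals.

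Genes were filtered with filterByExpr, which left 19619 of 54532, scaled with TMM and fitted as 4 group means in edgeR 4.0.16 (glmQLFit, robust, glmQLFTest, R 4.3.3), with p-values adjusted by Benjamini-Hochberg over all genes tested at a threshold of 0.05. Each SE was obtained as the log2 fold change over the root of the F statistic. CPM uses TMM-scaled totals, and relations use log2(CPM + 0.5). Exon lengths and coordinates are from GENCODE M21 and promoters from RefSeq (all 8 genes matched). The fit was tested on simulated counts. Alternatives included DESeq2 1.42.0, voom in limma 3.58.1, further scalings, other filters and thresholds, a replicate block, an additive model, marker levels as covariates and libraries left out.

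The genes, lists and tests were chosen with earlier results of these data known. Besides the 8 genes, the named genes were the 3 of each pathway list with the lowest unadjusted p in CAIA against control and a mean of at least 1 CPM, any that passed, and the 5 most like Depp1. Not all genes that this rule names are reported here, and Ins2 was named after its value was seen. Same-numbered libraries were not paired by the labels. Figures were drawn with matplotlib 3.10.9.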

Additional observations from a re-analysis of the deposited data

Results flagged for a closer look

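In 3 of the groups of libraries checked for the genes named above (5 controls or 6 CAIA libraries per gene, both sexes together), 1 library stood far from the others. Irs1 was at 15.1 CPM in female CAIA replicate 3, below the other CAIA libraries. Selenop was at 242 CPM in male CAIA replicate 1, the lowest CAIA library for that gene. Ulk2, an autophagy kinase gene, was at 117 CPM in male control replicate 1, below the other controls. Among the 68 groups checked, chance alone gives about 1 in 20. None of these libraries was set apart for any of the 8 genes.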

How the results depend on the processing

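Of the 8 genes, 1 passed in CAIA against control, Depp1, which was chosen from the genes that passed. The number was 0 in limma-voom, with a replicate block, with the choroid plexus level as a covariate, and without the pair of libraries highest in pineal markers. It was 3 (Txnip, Pdk4 and Depp1) without a filter on low counts, where the SE of Txnip and Pdk4 was smaller (0.09 and 0.11). It was 0 to 1 when each library was left out in turn. For female against male none passed, and the number was 2 without the filter and 1 with the choroid plexus covariate. Without the pair of CAIA libraries highest in choroid plexus markers, male CAIA replicate 1 is the only male CAIA library. No number of calls is given for that fit, in which Depp1 was at 1.27, its lowest value. Both library pairs were chosen after seeing the data. The choroid plexus level separates the treatments completely, so that fit has little information on treatment (Depp1 2.72 ± 0.81).

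Of the other pathway genes 1 passed in CAIA against control, Igf2. The number was 4 in DESeq2, 6 without the filter, 3 at a threshold of 0.1, 2 with the endothelial covariate, and 0 in the additive model, with the choroid plexus covariate and without the pineal pair. It was 0 to 2 with a library left out, where Hrk passed without female control replicate 3 or male CAIA replicate 3, Bcl6 without male control replicate 3 and Ins2 without male CAIA replicate 2. Without the filter, 4 passed for the CAIA effect in females minus males and 2 for female against male. Shares of all genes called in these alternative fits are not given here, so nothing is read from the counts. The cause of these moves was not tested. Among the relations of Depp1 the number that passed was 0 in all fits.

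The labels do not pair libraries by replicate number. Same-numbered libraries had deviations correlated at 0.08, -0.07 and -0.12 in females and 0.02 and -0.24 in males. Deviations cancel within each group, and those of the 2 male controls mirror each other, so these values cannot show whether libraries were paired. The replicate block gave 0 calls among the 8 genes, with Depp1 at 1.76.

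The following log2 values reversed. With the choroid plexus covariate CAIA against control gave 0.11 for Bbc3, 0.026 for Ccnd2, -0.033 for Foxo3 and 0.15 for Foxo6. Without the choroid plexus pair it gave -0.033 for Cdkn1a and -0.027 for Foxo4. Without the pineal pair it gave -0.0025 for Bcl2l11, and female against male gave -0.046 for Cdkn1a and -0.054 for Klf15. In the CAIA effect of females minus males the pineal pair left out gave -0.17 for Cdkn1a and -0.00084 for Klf15, while Pdk4 was 0.030 with the replicate block, 0.10 with the endothelial and 0.63 with the choroid plexus covariate, and 0.67 without the choroid plexus pair.

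Other values moved without reversing. With the choroid plexus covariate, a fit with little information on treatment, Cdkn1a was at 1.31 ± 0.53 in CAIA against control. Over all fits except those with a single library left out, this contrast ran from 0.05 to 1.62 for Pdk4. It ran from 0.0017 to 1.56 for Txnip, 0.05 to 0.80 for Klf15, 0.14 to 0.60 for Foxo1 and 0.16 to 0.31 for Irs2. With a library left out, CAIA against control ran from -0.011 to 0.10 for Foxo3, -0.16 to 0.068 for Foxo6 and -0.013 to 0.14 for Ulk2. The difference between sexes in the CAIA effect ran from -0.086 to 0.58 for Cdkn1a, -0.21 to 0.053 for Irs2, -0.078 to 0.49 for Klf15 and -0.57 to 0.33 for Pdk4. Female against male ran from -0.0012 to 0.33 for Cdkn1a and -0.065 to 0.23 for Klf15. The relation of Depp1 (r) ran from -0.76 to 0.35 with Foxo1, -0.023 to 0.43 with Foxo3, -0.57 to 0.39 with Pdk4, -0.12 to 0.36 with Klf15, 0.040 to 0.82 with Cdkn1a, -0.31 to 0.49 with Txnip and -0.25 to 0.22 with Irs2, and r with Irs2 was also -0.022 at a pseudocount of 1 CPM and -0.0081 with library totals only. Depp1 rests on 8 to 107 counts per library, which limits these relations.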
